A study of Mus musculus with 2 samples.

Results

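The probes described here carry the names of human miR-512 to miR-527 and of human miR-371, miR-372 and miR-373. They were taken from a miRNA array by their names alone, whatever their letter or suffix, which gave 45 of the 377 probes other than controls, each printed in 4 spots. The 2 arrays of the study were hybridised with total RNA of C3H10T1/2, a line of mouse mesenchymal cells able to become adipocytes, osteoblasts or chondrocytes. One array held RNA of cells given BMP7 at 3.3 nM over 3 days, and the other held RNA of cells given vehicle over the same time. BMP7, one of the bone morphogenetic proteins, is secreted and acts on cells through receptors that activate SMAD transcription factors. The study asked which miRNAs BMP7 regulates, and the RNA was labelled with the dye Cy3, read in 1 of the scanner's 2 channels. With 1 array per group the precision is limited by the number of arrays, no difference has a replicate check, and none is given a p-value. Errors are the spread of a probe's 4 spots, as a standard deviation or a standard error, and cover the spread within an array only.

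Most of these human genes lie in a primate miRNA cluster that is expressed mainly in the placenta and has no mouse counterpart. MiR-371, miR-372 and miR-373 come from a neighbouring cluster of embryonic stem cells, at whose place the mouse has miR-290 to miR-295. The human genes of miR-513 and miR-514, which the names also take in, lie on the X chromosome and not in either cluster. In the mouse gene table used here (RefSeq, GRCm38.p6), 0 of 1228 miRNA genes bore one of these numbers. A probe named for such a miRNA on an array of mouse RNA therefore shows what an array reads where no mouse miRNA of that name is listed. A probe can still read a related miRNA, since hybridisation can tolerate mismatches.

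Mouse does express miRNAs that share the start of their sequence with miR-372, miR-373 and many miR-519 and miR-520 members, and these are shown because they are the closest mouse RNAs by seed. The seed, bases 2 to 8, is the stretch by which a miRNA finds its targets, and it is in capitals below, 5′ to 3′, as given by RefSeq on GRCm38.p6. Mir291a, Mir294 and Mir295 belong to the miR-290 cluster at chr7:3218968-3218989, chr7:3220691-3220712 and chr7:3220815-3220837 on the plus strand, where the mature forms are read. Mir302b and Mir302d lie on the plus strand at chr3:127545275-127545297 and chr3:127545665-127545687. These 5 share 1 seed.
mmu-miR-291a-3p: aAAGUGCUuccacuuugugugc
mmu-miR-294-3p: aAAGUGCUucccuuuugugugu
mmu-miR-295-3p: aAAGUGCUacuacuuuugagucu
mmu-miR-302b-3p: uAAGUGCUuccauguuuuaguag
mmu-miR-302d-3p: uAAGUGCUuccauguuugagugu
The seed of the miR-17 group holds the same run of bases 1 position further along. It is shown for miR-17-5p (chr14:115043684-115043706, plus strand), miR-93-5p (chr5:138165574-138165596, minus strand) and miR-106a-5p (chrX:52742541-52742563, minus strand).
mmu-miR-17-5p: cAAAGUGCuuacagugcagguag
mmu-miR-93-5p: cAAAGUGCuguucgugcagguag
mmu-miR-106a-5p: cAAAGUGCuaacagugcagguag

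In the Cy3 channel the primate-named probes lay at the level of their surroundings. The mean brightness of a probe's 4 spots ranged from 2949 to 5649.5 intensity units on the BMP7 array, with a median of 3988, and from 2605.5 to 5997.5 on the vehicle array, with a median of 3804.5. The dimmest and the brightest of the 45 thus differed 1.92-fold on the BMP7 array and 2.30-fold on the vehicle array. Probes with the number of a mouse miRNA gene, 276 in all and so a larger set, spanned 8.44-fold and 7.96-fold. Smaller sets were as narrow as the 45. The 23 probes for the mouse relatives described below spanned 1.81-fold and 2.02-fold. Another 23 miRNA probes without a mouse gene of their number spanned 1.96-fold and 1.95-fold. Set against the local background of each spot, 64 of the 180 primate-named spots (35.6%) were brighter than their surroundings with BMP7 and 96 (53.3%) with vehicle. Among all spots other than controls these shares were 36.1% and 55.5%. The median over the 45 probes of brightness over background was -350.0 with BMP7 and 120.0 with vehicle, against -317 and 149 over the mouse-numbered probes. The mean of 4 spots was below background for 29 of the 45 on the BMP7 array, for 17 on the vehicle array and for 14 on both.

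A spot was taken to pass when its brightness over background was above 2 standard deviations of the array's local backgrounds, a limit of 947 units with BMP7 and of 1152 with vehicle. A probe was called detected when at least 2 of its 4 spots passed. Of the primate-named spots 10 (5.56%) passed with BMP7 and 16 (8.89%) with vehicle, against 14.9% and 19.0% of mouse-numbered spots. The BMP7 array detected 1 of the 45 probes (2.22%) and the vehicle array 4 (8.89%). Over all 377 probes the shares were 12.5% and 19.4%, and over the mouse-numbered probes 14.9% and 21.4%. On 1 or both arrays 4 of the 45 (8.89%) were detected, against 21.5% of all probes, so 41 were detected on neither. The share was below that of all probes under every setting of the call that was run, on each array, though by less at some of them: at 1 standard deviation 10 of the 45 (22.2%) passed on the BMP7 array, beside 23.9% of all probes, and 12 (26.7%) on the vehicle array, beside 35.5%. No test of the difference in shares was made, since probes are not replicates.

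The 4 detected probes were miR-524_AS, miR-527, miR-526c and miR-513. MiR-524_AS, with the suffix as the files give it, was the only one detected on both arrays and, by the mean over both, the brightest of the 45 over background. Its 4 spots stood 134, 489, 1789 and 1503 units over background with BMP7 and 1663, 668, 1543 and 407 with vehicle, so the arrays overlapped and 2 spots passed on each. Its normalized log2 difference, BMP7 minus vehicle, was 0.23 ± 0.31 (SE over 4 spots per array).

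MiR-527 stood 54, 155, 346 and 204 units over background with BMP7 and 1196, 1100, 1085 and 1431 with vehicle. All 4 BMP7 values were below all 4 vehicle values, and the same held after normalization, with a log2 difference of -0.39 ± 0.07. Only the vehicle array detected it, a call that rests on spots 1 and 4. Its normalized difference is therefore given as a bound, 1.18-fold lower with BMP7. This bound sets the vehicle mean against the higher of the probe's BMP7 value and the lowest value of any probe detected with BMP7. That lowest log2 value was 10.97, and some undetected probes lay above it on the BMP7 array, such as miR-518a at 11.21. The bound also leaves out the spread of the spots, so it does not fix a smallest decrease. It depends on the background correction: without one the log2 difference of miR-527 was -0.05. The unsubtracted brightness of miR-527 gave no such order of the spots, averaging 4679 ± 143 with BMP7 and 4463 ± 348 with vehicle (SD, n = 4 spots each).

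MiR-526c was at -310, -265, -310 and 66 units with BMP7 against 1888, 457, 95 and 3825 with vehicle. Its call on the vehicle array rests on spots 1 and 4, and the spots of the arrays overlapped after normalization. The same kind of bound on normalized values was 1.20-fold lower with BMP7 for miR-526c, beside a log2 difference of -0.77 ± 0.45. MiR-513, whose human gene lies outside the chromosomal cluster, was at 757, 1199, 178 and -101 units with BMP7 and at 42, 429, 1222 and 1181 with vehicle. Only the vehicle array detected it, the spots of the arrays overlapped, and no fold is given because its bound was not above 1. Its log2 difference, 0.19 ± 0.31, was above 0 although only the vehicle array detected it.

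The detected probes were unevenly placed on the array. An array is printed in 16 blocks, and 3 of the 4 detected probes (miR-524_AS, miR-527 and miR-513) stood in block 4, which held 7 of the 45. In the same block 6 of the other 17 probes were detected as well. The median spot of block 4, over all its probes, stood 744 units over background on the vehicle array, the highest of the 16 blocks, and 211 on the BMP7 array. The second brightest of the 45 by the mean over both arrays, miR-518a, was in that block too, at 272, 603, 554 and 1595 units with BMP7 and 580, 545, 1313 and 524 with vehicle. With each spot taken against the median of its block, 1 of the 45 was detected on each array, miR-524_AS for BMP7 and miR-526c for vehicle, beside 13.8% and 14.9% of all probes. Block 12 held 8 of the 45, and 0 of these were detected. Its median spot stood 517 units over background on the BMP7 array, the highest of the blocks there, and 268 on the vehicle array. The part of the block in the calls was not tested beyond the values given here.

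By the mean over both arrays, the dimmest 3 over background were miR-518c, miR-518f_AS and miR-371. MiR-518c was at -902, -1192, -843 and -1314 units with BMP7 and -693, -1131, -947 and -1033 with vehicle, below its surroundings in all 8 spots. MiR-518f_AS was at -1423, -1814, -1913 and -2067 units with BMP7 and at -1134, -1389, 3168 and -588 with vehicle. A single vehicle spot of miR-518f_AS, at a brightness of 7371 against 2829 to 3725 in the other 3, stood far above the rest.

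None of the 4 probes for miR-371 to miR-373, the stem cell cluster, had a spot that passed on either array. MiR-371 was at -389, -748, -743 and -865 units with BMP7 and -965, -819, -553 and -1191 with vehicle. MiR-372 had 1 spot over its background, at 166 units on the BMP7 array, and the other 7 lay between -1153 and -104. MiR-373 was below background in all 8 spots, and miR-373_AS averaged 350 ± 408 units with BMP7 and 327 ± 413 with vehicle (SD, n = 4 spots each). No level of these miRNAs could be read from the Cy3 channel.

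The mouse relatives were taken by number, as 23 probes for either strand of the precursor, so some of them are for strands that do not begin with the shared run of bases. The BMP7 array detected 1 of the 23 (4.35%) and the vehicle array 5 (21.7%), beside 12.5% and 19.4% of all probes. MiR-93, of the miR-17 group that promotes cell growth, was detected on both, with a mean of 1000 units over background on the BMP7 array, 1190 on the vehicle array and a log2 difference of 0.12 ± 0.26. The other 4, detected on the vehicle array only, were the human probes for miR-106a and miR-17-3p and the mouse probes for miR-290 and miR-291-5p. By the same kind of bound, miR-291-5p was 1.38-fold, miR-106a 1.14-fold and miR-290 1.04-fold lower with BMP7. Their log2 differences were -0.76 ± 0.20, -0.92 ± 0.62 and -0.39 ± 0.44, in that order. For miR-106a and miR-290 the spots of the arrays overlapped. No fold is given for miR-17-3p. In the RefSeq table the sequences of miR-17-3p and miR-291a-5p do not begin with that run. The name of the miR-290 probe gives no strand: in RefSeq miR-290a-3p begins with the run and miR-290a-5p does not. The array's mouse probe for miR-106a, named after its values were seen, was detected on neither array, with a log2 difference of -0.09 ± 0.32 (SE over 4 spots per array). The mouse probe for miR-17-3p, also named after its values were seen, was detected on neither array. It averaged -937 units over background with BMP7 and -158 with vehicle. Of the 6 probes for miR-302, a stem cell miRNA family, 0 were detected.

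The comparison of BMP7 with vehicle gave no member past 2-fold among those detected: 0 of these 4 reached a 2-fold increase and 0 a 2-fold decrease. This rests on the background correction. With plain subtraction miR-524_AS was 1.42 higher on the log2 scale, and the differences of miR-526c and miR-527 were -6.35 and -1.60. Plain subtraction set values below 1 unit to 1, which took in the BMP7 spots of miR-526c below background. The size of -6.35 therefore depends on that floor. Over all 81 detected probes 3.7% were 2-fold or more higher and 7.41% were 2-fold or more lower. Values were also computed for the 41 that were not detected, to show how far background-level probes move. These are differences of brightness near background and no folds of RNA. By them 5 of the 45 (11.1%) lay past 1 on the log2 scale, all 5 among the undetected, beside 10.9% of all 377 probes. The 5, named after their values were seen, were miR-371 at 1.23 ± 0.35, miR-518f_AS at -1.82 ± 1.07, miR-512-5p at -1.80 ± 0.71, miR-520h at -1.32 ± 0.27 and miR-522 at -1.003 ± 0.53. For miR-520h, 1 of the BMP7 spots took the median background of its block, because its own could not be solved. All BMP7 spots lay above all vehicle spots for 4 of the 45, beside 10.6% of all probes, and below for 2, beside 11.1%. The median log2 difference of the 45 was 0.19, against 0.00 over all probes. It was -0.01 without miR-371 to miR-373, all 4 of which had values above 0.

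Before background was taken off, 37 of the 45 (82.2%) were brighter in the Cy3 channel on the BMP7 array, beside 76.4% of all probes, with a median ratio of 1.07 against 1.10. The surroundings of the spots differed in the same direction: the median local background was 4650 units for BMP7 and 3756 for vehicle, and the headers give a laser power for this channel of 3.17 with BMP7 and 2.45 with vehicle. The 192 spots of the array's Cy3 Control went the other way, averaging 31698 units with BMP7 and 35361 with vehicle. The part of laser power in these ratios was not tested.

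The second channel of the scans behaved otherwise, and the sources used here do not say what it holds. All 45 probes were brighter there than the brightest spot of Control_1, a control of the array, on both arrays, as were 340 of all 377. Their means ranged from 555 to 9220 units with BMP7 and from 494.5 to 10041 with vehicle. This was a span of 16.6-fold and 20.3-fold, beside 124-fold and 165-fold over the larger set of mouse-numbered probes. The order of the probes was nearly the same on both: between the arrays, over the 45 probes, the log2 brightness in the second channel had a Pearson correlation of 0.99 and a Spearman correlation of 0.96, against 0.44 and 0.46 in the Cy3 channel. Over all 377 probes the Pearson correlation was 0.99 in the second channel and 0.80 in the Cy3 channel. These correlations describe probes that share the same 2 arrays and print positions. BMP7 was the dimmer array in the second channel for 26 of the 45, beside 67.9% of all probes.

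Probes that share a number and letter and differ in the suffix (_AS, or -5p and -3p) formed 11 pairs. Within a pair the brighter probe in the second channel exceeded the dimmer by a median of 2.11-fold on the BMP7 array and 2.49-fold on the vehicle array. The widest gaps were 7.34-fold on the BMP7 array, for miR-518c, and 9.33-fold on the vehicle array, for miR-518f, a pair named after its values were seen. In the Cy3 channel the largest gap in any pair was 1.67-fold on the BMP7 array and 1.40-fold on the vehicle array. The probes of a pair differ in sequence, and their levels are given as a description only.

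The authors' deposited table lists all 45 as a ratio per array. Each of the 90 values was rebuilt within 0.1% by dividing Cy3 by second-channel brightness in each spot, averaging the spots, and dividing by the same average of Control_1, with no background taken off. The header of the BMP7 array names a separate image file for each channel and that of the vehicle array a single one, so the channels divided for the BMP7 array may come from different scans. In the authors' deposited table the 45 ratios ran from 0.0297 to 0.429 with BMP7 and from 0.0166 to 0.339 with vehicle. That is over 14.4-fold and 20.4-fold, beside 101-fold and 162-fold for its mouse-numbered probes. The ends of the range of the 45 were set by the second channel. Both probes at these ends were named after their values were seen. MiR-514, the dimmest of the 45 in the second channel, had the highest ratio in the authors' deposited table, and miR-512-3p, the brightest in the second channel, had the lowest. Their Cy3 means were close: 4152 ± 465 for miR-514 and 4699 ± 593 for miR-512-3p on the BMP7 array, and 3315 ± 173 and 3378 ± 262 in that order on the vehicle array (SD, n = 4 spots each). In the second channel they were at 555 ± 76.0 and 9220 ± 1107 with BMP7 and at 494.5 ± 108 and 10041 ± 1697 with vehicle. Over the 45, the log2 ratio of the authors' deposited table had a Pearson r of -0.98 with the log2 brightness in the second channel on each array, and of 0.22 with BMP7 and 0.052 with vehicle with that in the Cy3 channel. All 339 array rows gave much the same, -0.97 with BMP7 and -0.96 with vehicle for the second channel, and 0.057 and 0.10 for Cy3. The ratio contains both quantities, so these values describe which of them it followed.

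Of the 45, the authors' deposited table gives 43 as higher with BMP7, beside 92.6% of its 339 array rows, and the median fold was 1.35 against 1.46 over all rows. The lower ones in the authors' deposited table were miR-512-5p, 1.08-fold, and miR-518f, 1.09-fold, both named after their values were seen. A 2-fold increase stands in the authors' deposited table for 1 of the 45 (2.22%), beside 7.67% of all its rows, and a 2-fold decrease for 0, beside 0.295%. A share of these folds came from the control. The Control_1 ratio of Cy3 to second-channel brightness averaged 17.5 ± 4.42 with BMP7 and 20.5 ± 4.23 with vehicle (SD, n = 16 spots each), and division by it raises every BMP7 over vehicle fold 1.17-fold. Before this division 34 of the 45 ratios were higher with BMP7, the median fold of all 45 was 1.16, and 276 of all 339 rows were higher, with a median fold of 1.25. Of the 43 members that the authors' deposited table gives as higher, 9 were so only after it. Of all 339 rows, 314 were higher after it and 276 before. In 19 of the 45 the sign of the log2 fold in the authors' deposited table was opposite to that of the background-corrected Cy3 difference. No such count over all rows is given here. The Pearson correlation of this log2 fold with the Cy3 difference was 0.40 over the 45 and 0.21 over all 339 rows.

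MiR-372 was the member past 2-fold in the authors' deposited table, at 2.44-fold higher with BMP7 (0.0493 with BMP7 and 0.0202 with vehicle), which placed it at rank 6 of 339. Its Cy3 spots were at 4769, 3499, 3233 and 4222 units with BMP7 and 2889, 2901, 2748 and 2544 with vehicle. All BMP7 spots were brighter than all vehicle spots, with a ratio of the means of 1.42, and 1 of these 8 exceeded its own local background. In the second channel its spots were at 5283, 4713, 3993 and 4223 units with BMP7 and 6353, 7255, 6699 and 6603 with vehicle, so it was dimmer with BMP7 in every spot, with a ratio of the means of 0.68. Before division by Control_1 the fold was 2.09. After background correction and normalization of the Cy3 channel its log2 difference was 0.37 ± 0.54, with overlapping spots, and it was detected on neither array.

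The members next to it in the authors' deposited table, named after their values were seen, were miR-520d at 1.88-fold, miR-512-3p at 1.79-fold and miR-513 at 1.78-fold higher with BMP7. For miR-520d the Cy3 means were 4308 ± 527.5 with BMP7 and 4071 ± 559 with vehicle, which differ by less than the spread of the spots. Its second-channel means were 4262.5 ± 278 with BMP7 and 6493 ± 796 with vehicle. For miR-373, miR-373_AS and miR-371 the authors' deposited table gives 1.35-fold, 1.65-fold and 1.22-fold higher with BMP7. By number, the 8 probes for miR-520 had folds of 1.25 to 1.88 in the authors' deposited table, the 5 for miR-519 folds of 1.05 to 1.46 and the 8 for miR-518 folds of 0.92 to 1.63.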

How the data were processed

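Scanner exports of 2 arrays were used. Per the file headers they come from GenePix Pro 5.1.0.19 with no normalization, and the deposited intensity columns are mean spot brightness at the 2 scanner wavelengths, of which the shorter reads Cy3. Detector gain was equal on both arrays. The header of the BMP7 array names 2 image files for the 2 wavelengths, and that of the vehicle array names 1. The deposited sum and ratio of background-subtracted means can be negative and were treated as a score. From both, the local background was solved for 1723 and 1727 of 1728 spots (BMP7, vehicle), and other spots took their block's median. The authors' deposited ratio values are described with the results, and the matrix of values holds the same numbers for all 45 probes.

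The Cy3 intensity was background-corrected by the normexp method of limma 3.58.1 (R 4.3.3) with an offset of 50, controls were removed, arrays were quantile normalized, and log2 values of 4 spots were averaged. Tables used pandas 2.3.3, scipy 1.17.1 and numpy 2.4.6 with Python 3.11.15. The solving of backgrounds and the normalization were tested on simulated data in which only bright probes were changed. The test did not include the detection call or changes in probes at background level. No spot carried a flag.

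The probes and lists were chosen with earlier results of these data known. Named probes were those detected, those past 2-fold in the authors' table, the 3 brightest and 3 dimmest over background, those for miR-371 to miR-373, and detected mouse relatives. Other probes are marked as named after their values were seen. Mouse-numbered probes are those whose number a miRNA gene of the RefSeq table bears. Probe sequences and human miRNA sequences were not used here.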

Additional observations from a re-analysis of the deposited data

How the results depend on the processing

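No paired analysis was possible because each group has 1 array. The signal over background limits every count, and what causes the following shifts was not tested. Detection on the BMP7 array gave 10 primate-named probes at 1 standard deviation, 11 with the limit at the brightest Control_1 spot and 0 when at least 3 spots had to pass, against 1. On the vehicle array these were 12, 1 and 0, against 4, with 1 at 3 standard deviations and 1 with values centred on the block median, an alternative added after the data were seen. Among all probes the shares at 1 standard deviation, the Control_1 limit and at least 3 spots were 23.9%, 30.2% and 8.49% with BMP7. Among the 45 they were 22.2%, 24.4% and 0%. With vehicle they were 35.5%, 11.9% and 11.1% of all probes, beside 26.7%, 2.22% and 0% of the 45. At 3 standard deviations and with the block median they were 11.9% and 14.9% of all probes, beside 2.22% each time. Leaving out each spot in turn gave 0 to 1 primate-named probes on the BMP7 array and 1 to 4 on the vehicle array. With the block's median background, 26.7% of the primate-named spots were above it on the BMP7 array. No such share over all spots is given here. With plain subtraction and a floor of 1 unit, 1 detected member was at least 2-fold higher (miR-524_AS, log2 difference 1.42). Another 2 were at least 2-fold lower (miR-526c at -6.35, a size that depends on the floor, and miR-527 at -1.60). The median of the 45 was then -0.36, and the median over all probes was the same number. At this setting every spot below 1 unit takes the floor, and only 36.1% of all BMP7 spots were above background. Both medians can therefore depend on the floor. Leaving out spots gave 0 at least 2-fold higher each time, 0 to 1 at least 2-fold lower and a median of 0.02 to 0.25. With no background correction the median was -0.06. Over 11 alternative settings for each of the 4 detected probes, 39 of 44 log2 differences kept their sign. All of these settings reuse the same 2 arrays, and 1 takes the second channel in place of Cy3, so the count is no independent check. Divided by the median fold of all rows, the authors' deposited table has 14 of the 45 higher with BMP7. With the Cy3 background taken off and no division by Control_1, whose mean is then below 0 on the BMP7 array, 14 probes had a ratio above 0 on both arrays and 6 of them were higher with BMP7.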
